A study of Mus musculus with 76 samples.

Results

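The Wnt genes described here are the ligands, receptors, secreted antagonists and feedback components of Wnt signalling that were measured in tumours of a mouse directed complementation model. A gene was taken if its symbol was Wnt, Fzd, Sfrp or Dkk followed by a digit, or was Wif1, Axin2, Lgr5, Rnf43, Znrf3, Lef1 or Notum, and each was read from the probe set with the highest mean. This gave 45 genes of 18194 on the array. They were 19 Wnt ligands, 10 Frizzled receptors, 10 secreted antagonists (Sfrp1, Sfrp2, Sfrp4, Sfrp5, Dkk1, Dkk2, Dkk3, Dkk4, Wif1 and Notum), 5 genes of the ligase, R-spondin receptor and target class (Znrf3, Rnf43, Lgr5, Lef1 and Axin2), and Fzd10os, an opposite-strand transcript beside Fzd10 that the name rule takes in although it encodes no receptor. Tcf7, which the rule also names, is not analysed here.

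Tumour material of C57BL/6 mice was measured on 76 arrays. In all groups the model had first grown on the oncogene HER2(V659E) under doxycycline control, doxycycline was then withdrawn to turn it off, and the gene introduced next was tested for whether it kept the tumour growing. The 13 introduced genes were ErbB3, FAK1 (4 arrays), FGFR2aIIIb, FGFR2aIIIc, FGFR3, HER2, MAP3K11 (also called MLK3), MAP3K7 (also called TAK1), PIP5K1B, RON+MSP, RONd160, RSK2 and TNK2, with 6 arrays in each group except FAK1. The 6 MAP3K11 arrays alone are labelled with cachexia, so that label, the introduced gene and any difference between tumour lines cannot be told apart. No group without an introduced gene is among these arrays. T1, T2 and T3 in the array names are not defined, and neither the animals nor the tumour lines behind the replicates are named.

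Wnt proteins are lipid-modified secreted ligands. In the canonical branch they bring a Frizzled receptor together with the co-receptor LRP5 or LRP6, which keeps beta-catenin from being destroyed so that it can act with TCF/LEF factors on target genes; other branches act through Frizzled receptors and the co-receptors ROR and RYK on cell shape, polarity and movement. Secreted frizzled-related proteins and Wif1 bind the ligand, Dickkopf proteins other than the divergent Dkk3 bind the LRP co-receptor, and Notum removes the lipid. Znrf3 and Rnf43 are ubiquitin ligases that take Frizzled receptors off the cell surface, R-spondins acting through Lgr5 hold them back, and Axin2 is a target that feeds back on the pathway. In the mammary gland and its tumours both the epithelium and the stroma make Wnt ligands, and the secreted frizzled-related proteins are made largely by stromal cells.

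Values were log2 intensities as deposited, so a difference of 1 is 2-fold. Array medians lay between 5.45 and 5.56, and the median of 3 bacterial trp controls was 2.95. Within the groups the arrays fell into 38 pairs that resembled each other far more than the rest of their group, and in all 38 the T labels differed. The pairs were inferred from the arrays themselves, by matching their autosome medians, since no label gives them; the matching was least clear in FGFR3, and the weakest pair was the third of MAP3K11 (r = 0.47). Standard errors and p-values below come from limma with these pairs as a random block (correlation 0.628), with Benjamini-Hochberg adjustment over 13868 genes; "called" means an adjusted p below 0.05. The replicates are not stated to come from separate animals, so the p-values reflect only how far these arrays differ, part of which could be technical, and the number of arrays limits the precision.

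Of the 45 genes, 35 passed the filter for a test and 10 lay near background in nearly all arrays. The F test over the 13 groups called 20 of the 35 (57.1%). Over all genes tested the share was 54% (7495 genes), so the Wnt genes varied with the introduced gene about as often as other genes did. Called were 6 of 13 ligands, 6 of 10 receptors, 5 of 7 antagonists and 3 of 4 genes of the ligase and target class, but not Fzd10os. The range of group means ran from 0.20 for Fzd10 to 2.78 for Sfrp2. The receptor gene Fzd5 had a range of 1.38 and an adjusted p of 0.0588; its standard deviation was 0.70 between pair means within a group and 0.19 within pairs.

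**Figure D1:**
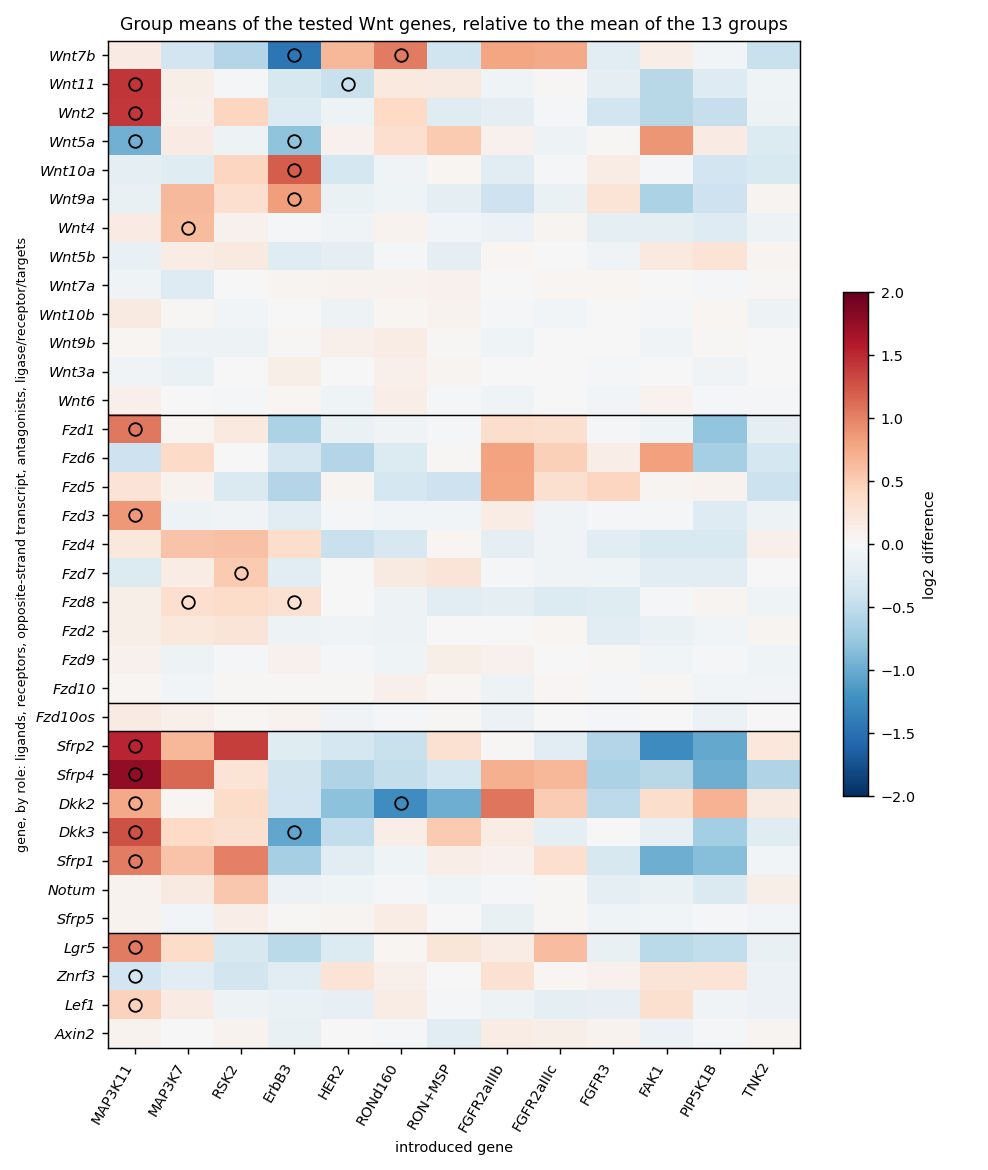
Mean of each of the 35 tested genes in each of the 13 groups, as the log2 difference from the mean of the 13 group means; rows are grouped by role, and a circle marks a gene called in that group against the other 12. The MAP3K11 column holds 13 of the 25 circles, ErbB3 holds 6, and 7 groups hold none.

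MAP3K11, the cachexia group, was compared with the average of the other 12 group means. Ligands, receptors and antagonists all had called members there: 11 Wnt genes rose and 2 fell. These 13 of 35 (37.1%) stand against 39.3% of all genes tested, so their number is near the background of this comparison. By direction, 31.4% of the Wnt genes were higher against 17.3% of all genes, and 5.71% were lower against 22.1%. The median difference of the 35 was 0.14, against -0.01 for all genes tested. In these whole tumours a change in the number of cells of a type and a change in RNA per cell cannot be told apart.

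Among the ligands, Wnt11 and Wnt2 rose and Wnt5a fell, while the other 10 tested ligands did not pass the test. For Wnt7a, named after its values were seen, the probe sets differed. The tested one gave a raw difference of -0.10, and another, above the 40th percentile in only 2 arrays, gave 0.79. The last, never above that percentile, gave 0.17. Wnt11, which acts mainly through the branches that do not need beta-catenin, was at 7.72 and 7.62 in the first MAP3K11 pair, 6.67 and 6.92 in the second, and 7.40 and 7.65 in the third. Every one of the 6 lay above all 70 other arrays, which ran from 5.17 to 6.60. The difference was 1.56 ± 0.15 (SE; 6 against 70 arrays, adjusted p = 1.79e-13). How many of all genes tested set MAP3K11 apart as fully was not counted. The highest arrays outside MAP3K11 were the pair of MAP3K7 at 6.60 and 6.46. Elsewhere the group means ran from 5.34 in FAK1 to 6.08 in RON+MSP and RONd160, and HER2 was lower than the other groups by 0.48 ± 0.15 (SE, adjusted p = 0.0275).

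Wnt2, a ligand of the canonical branch, was at 6.92 and 6.50, 7.42 and 7.42, and 6.06 and 5.62 in the 3 MAP3K11 pairs. The third pair and the lower array of the first lay within the range of the other arrays, 4.18 to 6.57. Of those other arrays, 8 reached the lower value of the third pair. The difference was 1.54 ± 0.26 (SE, adjusted p = 2.23e-06). RSK2 and RONd160 had the next highest means, 5.68 ± 0.52 and 5.64 ± 0.35 (SD, n = 6).

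Wnt5a, the best known ligand of the beta-catenin-independent branch, was at 8.05 and 7.17, 8.89 and 8.94, and 9.04 and 9.06 in the 3 MAP3K11 pairs. The other arrays had a median of 9.57 and ran from 8.06 to 10.78, and 14 of them lay at or below the highest MAP3K11 array. The difference was -1.03 ± 0.22 (SE, adjusted p = 0.000109), and the 4 probe sets of Wnt5a gave raw differences of the means from -1.04 to -0.90. The call rested on the first pair: without it the difference was -0.57 (adjusted p = 0.0629). ErbB3 was low as well, at 8.67 ± 0.44 (SD, n = 6), a difference of -0.86 ± 0.22 (SE, adjusted p = 0.00618), whereas FAK1 was highest, at 10.36 ± 0.48 (SD, n = 4), with no call.

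Because Wnt11, Wnt2 and the receptor gene Fzd1 rose together, the 250 bases before their start sites are printed where RefSeq's promoter table on GRCm38.p6 holds them; it holds 29 of the 45 genes. Capitals mark matches on either strand to words searched for. For TCF/LEF factors the word was CTTTGAA or, in its other form, CTTTGAT. For AP-1 it was TGANTCA, and for the TATA box TATAAA.
Wnt11 (chr7:98834862-98835111, plus strand): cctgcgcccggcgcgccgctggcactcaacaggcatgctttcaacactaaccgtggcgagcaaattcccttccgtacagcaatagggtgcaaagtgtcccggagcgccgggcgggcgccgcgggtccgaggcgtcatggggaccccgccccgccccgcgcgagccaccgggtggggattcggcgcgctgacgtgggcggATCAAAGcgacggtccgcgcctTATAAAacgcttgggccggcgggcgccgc
Wnt2 (chr6:18030446-18030695, minus strand): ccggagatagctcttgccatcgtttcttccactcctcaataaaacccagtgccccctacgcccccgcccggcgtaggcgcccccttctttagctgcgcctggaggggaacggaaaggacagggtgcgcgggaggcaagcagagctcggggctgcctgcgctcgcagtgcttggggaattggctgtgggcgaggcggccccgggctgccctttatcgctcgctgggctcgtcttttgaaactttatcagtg
Fzd1 (chr5:4758217-4758466, minus strand): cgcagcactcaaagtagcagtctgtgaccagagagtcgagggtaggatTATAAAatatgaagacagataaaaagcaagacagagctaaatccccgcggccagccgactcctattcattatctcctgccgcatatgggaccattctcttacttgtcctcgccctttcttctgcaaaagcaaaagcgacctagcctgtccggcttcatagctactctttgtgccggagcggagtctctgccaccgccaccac
The Wnt11 window printed has the TCF/LEF core as ATCAAAG from 51 bases before the start and TATAAA from 29 bases before it. The table lists another Wnt11 start (window chr7:98838595-98838844), and that window holds none of these words. Fzd1 has TATAAA from 202 bases before its start, and none of these words stands in the Wnt2 window. The Wnt2 gene is annotated up to chr6:18032772. On the minus strand the Wnt2 window therefore lies inside the gene, not before its outermost start. Of 32851 promoters of the same length in the table, 7.48% hold a TCF/LEF core, 6.75% an AP-1 word and 12.4% TATAAA, and of 36 promoters of the Wnt genes 3, 1 and 6 do. A match is a string of letters and not a shown binding site. Fzd3 and Wnt5a have no entry in the table.

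Among the 10 Frizzled genes, Fzd1 and Fzd3 rose in MAP3K11 and none fell. Fzd3, a receptor of the planar polarity branch in neural tissue, was at 6.05 and 6.23, 5.76 and 6.02, and 5.96 and 6.31. All 6 exceeded the 70 arrays of other groups, which reached 5.70 at most. The share of all genes tested with such a separation was not counted. The difference was 0.95 ± 0.12 (SE, adjusted p = 6.00e-10), and every other group had a mean between 4.92 and 5.33. Another 3 Fzd3 probe sets that rose above the low end of the arrays gave raw differences of 1.39, 1.66 and 0.56, while 2 that stayed below the 40th percentile on all arrays gave 0.17 and 0.10.

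Fzd1 had its lowest MAP3K11 value at 9.0, its median at 9.28 and its highest at 9.53. Only 3 of the other 70 arrays reached the lowest of these, both arrays of 1 MAP3K7 pair (9.40 and 9.79) and 1 RSK2 array (9.26). The difference was 1.14 ± 0.26 (SE, adjusted p = 0.00033), and the other Fzd1 probe set gave a raw difference of 0.46. Fzd1 was lowest in PIP5K1B, at 7.41 ± 0.44 (SD, n = 6), with no call.

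Fzd6 and Fzd5 were not called in MAP3K11. Fzd6, which inhibits canonical signalling in some settings, was between 6.51 and 6.91 there, against means of 7.94 in FAK1, 7.92 in FGFR2aIIIb and 6.46 in PIP5K1B; its F test had an adjusted p of 0.00114. Fzd5 was between 6.60 and 6.96 in MAP3K11 and reached 8.87 in FGFR3, where its other pairs lay at 5.75 to 6.38. The remaining 6 Frizzled genes were not called there either; their group means spanned 0.20 to 1.03.

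**Figure D2:**
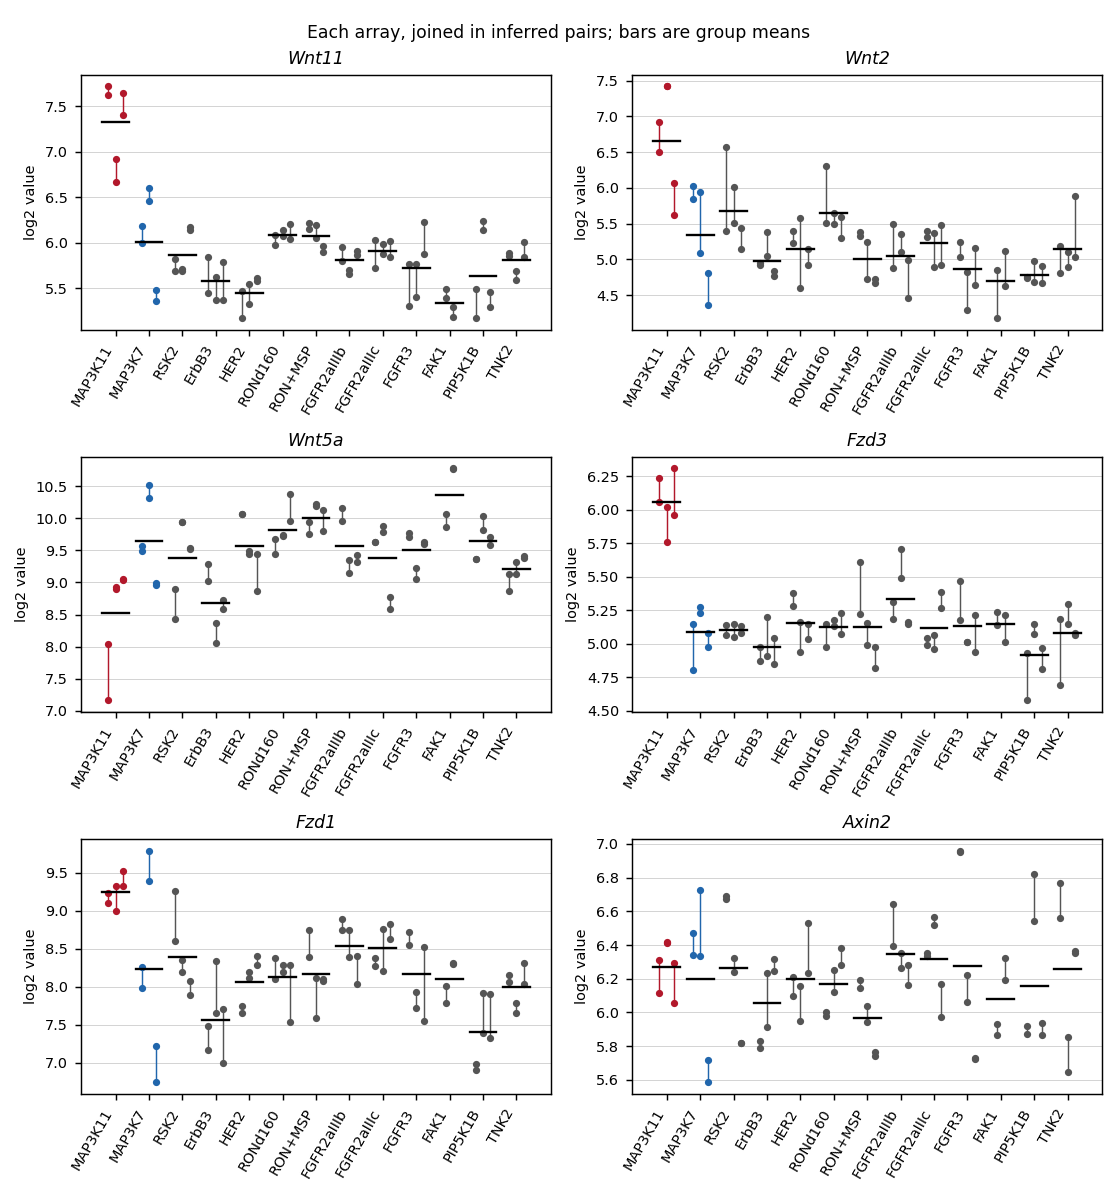
Log2 values of Wnt11, Wnt2, Wnt5a, Fzd3, Fzd1 and Axin2 in every array, by introduced gene; points joined by a line are the inferred pairs and black bars are group means (MAP3K11 in red, MAP3K7 in blue). For Wnt11 and Fzd3 no array of another group reaches the MAP3K11 values, and the share of all genes of which this holds was not counted. Axin2 does not separate the groups.

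Of the 7 tested antagonists 5 rose in MAP3K11 and none fell, where 17.3% of all genes were higher and 22.1% lower. Sfrp4 and Sfrp2 had the widest ranges of group means, 2.76 and 2.78. Sfrp4 was at 9.06 and 9.45, 8.0 and 8.49, and 10.22 and 10.83 in MAP3K11, a difference of 1.93 ± 0.43 (SE, adjusted p = 0.000192). The other arrays had a median of 7.25, yet the 2 highest values of all, 12.30 and 11.59, were those of 1 MAP3K7 pair, whose group otherwise lay between 6.16 and 8.27.

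Sfrp2 lay between 10.02 and 10.99 in MAP3K11 with a median of 10.21, against a median of 8.84 in the other 70 arrays, a difference of 1.63 ± 0.51 (SE, adjusted p = 0.00769). RSK2 had nearly the same mean, 10.22 ± 0.72 against 10.37 ± 0.36 (SD, n = 6), and 7 arrays of other groups reached the lowest MAP3K11 value. Without the second MAP3K11 pair the difference was 1.5 (adjusted p = 0.0551). Sfrp1 ran from 8.32 to 9.88 in MAP3K11, with a difference of 1.11 ± 0.41 (SE, adjusted p = 0.0241). It too had a like mean in RSK2, 8.89 against 8.91, and it lost its call without the first pair (1.20, adjusted p = 0.0632), without the second (0.82, adjusted p = 0.207) or without the T2 replicate 2 array (0.97, adjusted p = 0.0575). The other Sfrp1 probe sets gave raw differences of 0.27, 0.71, 0.88 and 1.21. The smallest came from a probe set above the 40th percentile in all 76 arrays.

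Dkk3, a divergent Dickkopf counted here by its name, was between 7.09 and 8.29 in MAP3K11 (median 8.14) against a median of 6.58 elsewhere. The difference was 1.37 ± 0.34 (SE, adjusted p = 0.000838). Of the MAP3K7 arrays 4 reached the lowest MAP3K11 value, as did 2 each in FAK1, FGFR2aIIIb, RON+MSP, RONd160 and RSK2. The highest array of all, at 8.58, was in MAP3K7. Dkk2, which can block or weakly activate the co-receptor, was between 10.07 and 10.79, a difference of 0.83 ± 0.34 (SE, adjusted p = 0.0459). That call was lost in 19 of 114 repeats that left out 1 array or 1 pair, among them each of the 3 MAP3K11 pairs (adjusted p up to 0.18), 3 single MAP3K11 arrays and 13 pairs of other groups. It was also lost with pair means (0.82, adjusted p = 0.159) and with median centring (0.81, adjusted p = 0.0525). FGFR2aIIIb was higher than MAP3K11 in Dkk2, at 10.85 ± 0.35 (SD, n = 6), and 29 of the other 70 arrays reached the lowest MAP3K11 value. Sfrp5 and Notum were not called.

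Fibroblast markers were higher in MAP3K11 as well. Of 12 collagen, receptor and matrix genes, 8 were higher and 1 lower in MAP3K11 (median difference 0.73), and the list's mean, relative to all arrays, ran from 0.37 to 0.79 in MAP3K11. RSK2 (0.10 to 0.83), MAP3K7 (-0.13 to 0.84) and RON+MSP (-0.05 to 0.70) overlapped with it, and HER2 was lowest, at -1.15 to -0.39. With the list mean as a covariate, Sfrp2 was 0.42 ± 0.34 (SE) higher in MAP3K11 (adjusted p = 0.364) and Sfrp1 0.57 ± 0.39 (adjusted p = 0.276). Sfrp4 kept a difference of 1.56 ± 0.44 (adjusted p = 0.00368), Dkk3 of 0.71 ± 0.28 (adjusted p = 0.0435) and Dkk2 of 1.15 ± 0.35 (adjusted p = 0.00675). The slopes in that fit are those within groups, with the T label as a term. Sfrp2 rose by 1.94 ± 0.20 (SE) for each unit of the list mean, Dkk3 by 1.06 ± 0.17 and Sfrp1 by 0.88 ± 0.23. The slopes of the other 4 tested antagonists were not called; Sfrp4 had 0.59 ± 0.26 (adjusted p = 0.0913), Dkk2 -0.52 ± 0.20 (adjusted p = 0.0545), Sfrp5 0.09 ± 0.06 and Notum 0.01 ± 0.11. In all, 9 of 35 Wnt genes had a called slope, where 22.6% of all genes did; 8 sloped upwards and Znrf3 downwards. The part of fibroblast content in the Wnt differences was not tested beyond these fits.

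**Figure D3:**
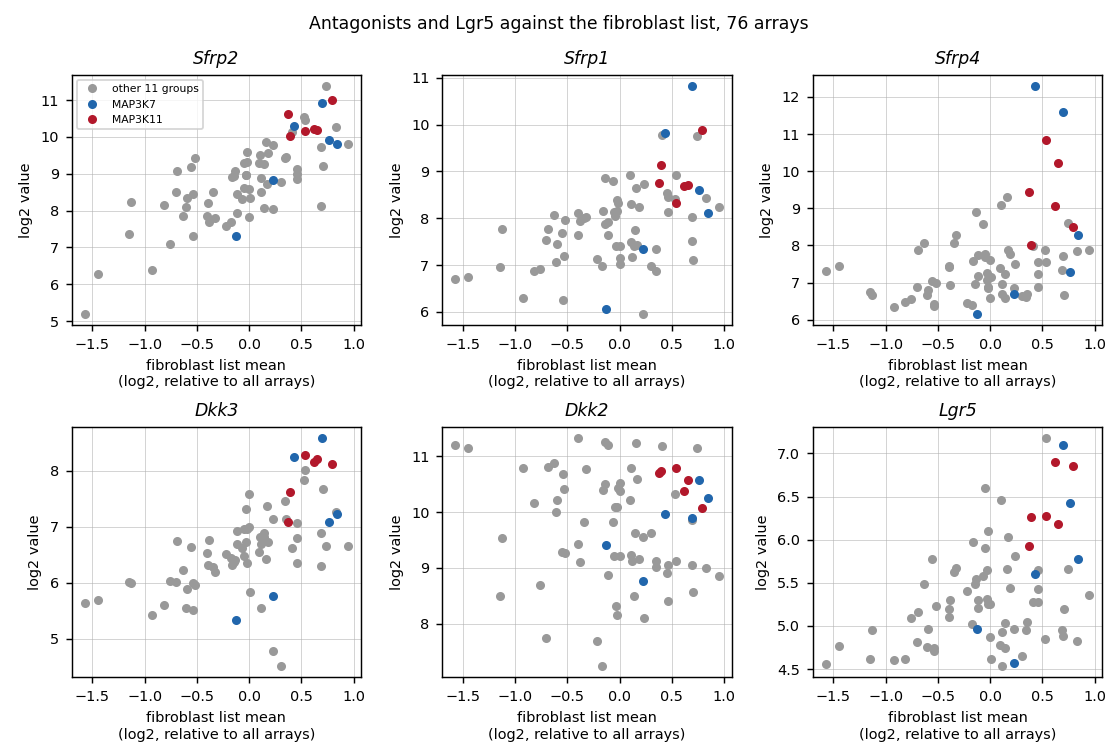
Log2 values of Sfrp2, Sfrp1, Sfrp4, Dkk3, Dkk2 and Lgr5 in the 76 arrays against the mean of 12 fibroblast markers (log2, relative to all arrays); MAP3K11 in red, MAP3K7 in blue, the other 11 groups in grey. The fitted slopes, taken within groups and not from the pooled points shown, were 1.94 for Sfrp2 and -0.52 for Dkk2 (not called). Sfrp4 is highest in the MAP3K7 pair at 12.30 and 11.59.

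Of the ligase and target class, Lgr5 and Lef1 rose in MAP3K11, Znrf3 fell, and Axin2 was not called. Lgr5 lay between 5.93 and 6.91, against a median of 5.22 in the other arrays, of which 8 reached its lowest value; the difference was 1.11 ± 0.31 (SE, adjusted p = 0.00289). Its other probe set, not above the 40th percentile on any array, gave a raw difference of 0.0006. Lef1 lay between 5.02 and 5.57, a difference of 0.49 ± 0.13 (SE, adjusted p = 0.00242), and is a low signal, above the 40th percentile in 42 of 76 arrays. Its other probe set, never above that percentile, gave a raw difference of 0.24, and with the probe set of largest interquartile range the call was lost (0.24, adjusted p = 0.166). Znrf3 lay between 6.21 and 6.70 (difference -0.42 ± 0.14, SE, adjusted p = 0.0114). Its call was lost without the first pair (-0.39, adjusted p = 0.068) or the third (-0.36, adjusted p = 0.0853), and its other probe set gave a raw difference of 0.09; with the mean of its probe sets the difference was -0.16 (adjusted p = 0.177). RSK2 had the same level of Znrf3, 6.53 ± 0.14 against 6.51 ± 0.17 (SD, n = 6). With the fibroblast covariate Lgr5 (0.65 ± 0.29, SE, adjusted p = 0.0726) and Znrf3 (-0.20 ± 0.12, adjusted p = 0.214) were no longer called and Lef1 was (0.47 ± 0.14, adjusted p = 0.00717).

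Axin2, the common readout of canonical signalling, had group means between 5.97 and 6.35. It was at 6.05 to 6.42 in MAP3K11 (difference 0.08 ± 0.15, SE, adjusted p = 0.725), and its F test gave an adjusted p of 0.932. It did vary between pairs of a group: in FGFR3 1 pair stood at 6.96 and 6.95 and the others between 5.72 and 6.22. The standard deviation between pair means within a group was 0.35, and within pairs it was 0.11.

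**Figure D4:**
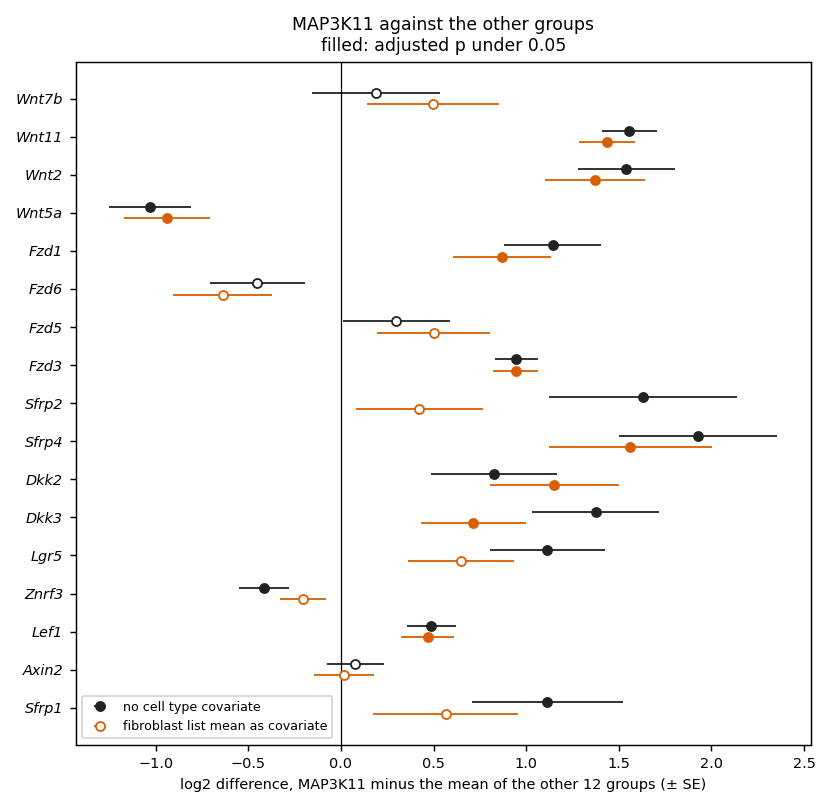
Log2 difference between MAP3K11 and the mean of the other 12 groups (± SE) for the 17 genes described in full, without a cell type covariate (black) and with the fibroblast list mean as covariate (orange); filled points are called at an adjusted p under 0.05. Wnt11, Wnt2, Wnt5a, Fzd1, Fzd3, Sfrp4, Dkk2, Dkk3 and Lef1 are filled in both, Sfrp2, Sfrp1, Lgr5 and Znrf3 only without the covariate.

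The T cell list mean was 0.17 to 0.34 in MAP3K11, and the highest array, of ErbB3, was at 1.09; 1 of 5 tested markers was higher. Thy1 stands in both the T cell and the fibroblast list. With the T cell list mean as covariate 10 Wnt genes were called, Lgr5, Sfrp1, Sfrp2 and Znrf3 losing their calls and Fzd6 gaining one (-0.70 ± 0.26, SE, adjusted p = 0.0284). Without a covariate, the tested Fzd6 probe set gave a raw difference of -0.46 and its other probe sets gave 0.10 and -0.16. The slope on the T cell list was called for 10 of 35 Wnt genes, all upwards, where 18.2% of all genes had one. Of the other cell types, 4 of 8 endothelial and 3 of 8 luminal epithelial markers were higher in MAP3K11, 4 of 8 macrophage markers and 2 of 8 skeletal muscle markers were lower, and no basal or adipocyte marker was called. The part of these in the Wnt differences was not tested.

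Genes around the pathway moved both ways in MAP3K11. Of 23 tested genes for Wnt secretion, co-receptors and modulators, 5 were higher and 5 lower; of 32 cytoplasmic and nuclear components, 7 were higher and 4 lower; of 12 planar polarity genes, 5 were higher and 3 lower. Of 17 common targets 2 were higher and 6 lower. The shares called are to be read against the 39.3% of all genes. The 4 called genes with the largest differences were the R-spondin receptor Lgr6 (2.12 ± 0.59, SE, adjusted p = 0.003), the inhibitor and target Apcdd1 (-2.04 ± 0.22, adjusted p = 1.60e-11), the Notch ligand Jag1 (1.42 ± 0.28) and Bmp4 (-1.37 ± 0.37). Chosen after their values were seen, Porcn, which attaches the lipid to Wnt proteins, and Wls, which carries them to the surface, were both lower (-0.61 ± 0.17 and -0.65 ± 0.14, SE), and Frzb, another secreted frizzled-related protein, was higher (1.15 ± 0.23).

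MAP3K11 against MAP3K7 compares the upstream MAP kinase kinase kinases that the design text names. Of the 35 genes, 5 were called (14.3%, against 21.6% of all genes), namely those ligands and receptors that also differed from the other 12 groups. This comparison shares its MAP3K11 and MAP3K7 arrays with the preceding one. Wnt11 was higher by 1.32 ± 0.20 (SE, adjusted p = 8.30e-07), Fzd3 by 0.97 ± 0.16 (adjusted p = 2.75e-06), Wnt2 by 1.31 ± 0.35 (adjusted p = 0.00465) and Fzd1 by 1.02 ± 0.36 (adjusted p = 0.0318), and Wnt5a was lower (-1.12 ± 0.30, adjusted p = 0.00405). No antagonist was called, with Sfrp4 at 0.63 ± 0.58 and Sfrp2 at 0.86 ± 0.69 (SE).

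The MAP3K7 group held 1 pair, its T1 replicate 2 and T3 replicate 1 arrays, that lay apart from the other 4 arrays in Sfrp4, Sfrp1, Fzd1, Dkk3 and others. Without it 8 genes were called, with Sfrp4 higher in MAP3K11 by 2.24 ± 0.46 (SE), Dkk3 by 1.58 ± 0.49, Lef1 by 0.52 ± 0.20 and Wnt9a lower (-1.14 ± 0.42), while Wnt5a lost its call (-0.73 ± 0.32, adjusted p = 0.089). Without the first MAP3K11 pair 3 genes were called, Fzd1 (adjusted p = 0.0639) and Wnt5a (adjusted p = 0.134) dropping out, and without the second also 3, Fzd1 (adjusted p = 0.0603) and Wnt2 (adjusted p = 0.0791) dropping out. In all, Fzd1 lost its call in 6 repeats (adjusted p up to 0.542), among them the third MAP3K11 pair, MAP3K7 pairs 1 and 3 and the MAP3K7 T3 replicate 2 array, and Wnt2 also without MAP3K7 pair 3 (adjusted p = 0.0915). Wnt11 and Fzd3 kept their calls in all 114 repeats with 1 array or pair left out.

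The remaining 12 groups gave 12 calls when each was set against the other 12 groups, and the members named here that lie outside the 17 were chosen after their values were seen. ErbB3 had 6 (17.1%, against 11.9% of all genes). Cell type markers also differed in ErbB3: 5 of 8 macrophage markers were higher (median difference 0.57), 5 of 12 fibroblast markers were higher and 1 lower (0.40), 2 of 8 luminal epithelial markers were lower (-0.10), 1 of 5 T cell markers was lower and 1 of 6 basal markers higher. Of 8 skeletal muscle markers none was called in ErbB3 (median difference 2.09). The part of these cell types in the ErbB3 differences was not tested. In ErbB3 Wnt7b, a ligand made by epithelial cells, was at 6.59 to 7.99 against group means from 8.22 to 9.85 elsewhere (difference -1.57 ± 0.35, SE, adjusted p = 0.00134). Dkk3 (-1.12 ± 0.34) and Wnt5a (-0.86 ± 0.22) were lower too, and Wnt10a (1.3 ± 0.28), Wnt9a (0.89 ± 0.28) and the receptor gene Fzd8 (0.36 ± 0.12) were higher. Each of these 6 calls was lost without pair 2 or pair 3 of ErbB3, Dkk3 only without pair 3 and Wnt7b only without pair 2 (-1.31 ± 0.42, adjusted p = 0.0875). On the tested Dkk3 probe set ErbB3 had the lowest group mean, 5.60. On the other Dkk3 probe set, above the 40th percentile in all 76 arrays, ErbB3 was at 6.04 and PIP5K1B lower, at 5.88.

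RONd160 had 2 calls (5.71%, against 8.73%): Wnt7b was higher, at 9.12 to 10.73 (1.11 ± 0.35, SE, adjusted p = 0.0319), and Dkk2 was lower, at 8.10 to 9.10 (-1.35 ± 0.34, adjusted p = 0.00675). Both were lost without pair 2 or pair 3 of RONd160, Wnt7b (0.75 ± 0.42, adjusted p = 0.414, without pair 3) also without its T1 replicate 3 or T2 replicate 1 array. MAP3K7 had 2 (against 7.9%), Fzd8 (0.36 ± 0.12, SE, lost in 6 repeats) and Wnt4 (0.69 ± 0.20, lost in 3). RSK2 had 1 (2.86%, against 2.59%), Fzd7 (0.58 ± 0.15, adjusted p = 0.028), lost without its pair 1 (0.41, adjusted p = 0.469), its pair 3 or its T2 replicate 2 or T3 replicate 1 array. The other Fzd7 probe set was above the 40th percentile in all 76 arrays. On that probe set RSK2 had a mean of 5.53 and RONd160 was higher, at 5.59. Skeletal muscle markers stood high in RSK2, with a list mean of 1.22 to 4.54, but none of the 8 was called. MAP3K11 lay at -2.49 to -2.19, and single arrays reached 4.74 in PIP5K1B, 4.41 in ErbB3 and 4.04 in RON+MSP. In RSK2 4 of 8 endothelial markers (median difference 0.68), 1 of 12 fibroblast and 1 of 6 basal markers were higher. There 1 of 8 luminal epithelial markers was lower. The part of these cell types in the RSK2 values was not tested. HER2 had 1 (against 9.55%), the lower Wnt11, lost without any of its 3 pairs (adjusted p up to 0.191).

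No Wnt gene was called by limma in FAK1 (0.808% of all genes called), FGFR2aIIIb (1.91%), FGFR2aIIIc (0.0721%), FGFR3 (0%), PIP5K1B (3.61%), RON+MSP (0.461%) or TNK2 (0.0937%). At an unadjusted p under 0.05 there were, of the 35 Wnt genes and of the 13868 genes tested, 7 and 1727 in FAK1, 5 and 2036 in FGFR2aIIIb, 3 and 916 in FGFR2aIIIc, and 1 and 1126 in FGFR3. There were 10 and 2604 in PIP5K1B, 2 and 1724 in RON+MSP, and 0 and 1534 in TNK2. The 2 isoforms of FGFR2a therefore had no called Wnt gene; group means of Dkk2 were 10.85 ± 0.35 in FGFR2aIIIb and 10.28 ± 0.44 in FGFR2aIIIc (SD, n = 6), with no test of that difference run.

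Several Wnt genes were high in 1 pair of arrays and not in the rest of the group, as seen in the genes picked for this after their values were seen. Wif1 was at 7.11 and 5.37 in the MAP3K7 pair named above, and no other array exceeded 3.58. The same pair held Wnt4 at 7.80 and 7.89, where the other MAP3K7 arrays lay between 5.68 and 5.88 and no other array exceeded 6.72; without it the MAP3K7 difference in Wnt4 was -0.01 ± 0.19 (SE, adjusted p = 0.982). Notum was at 7.16 and 6.96 in 1 RSK2 pair (T1 replicate 1 and T2 replicate 2) and at 5.63 and 6.02 in that MAP3K7 pair, and at most 5.44 elsewhere.

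The RSK2 pair that was high in Notum also had Wnt10a at 7.21 and 6.87, where the other 4 RSK2 arrays lay between 4.29 and 4.60. In ErbB3, 2 of the 3 pairs were high in Wnt10a (6.06 and 6.95, and 6.98 and 7.46), and the third was at 4.54 and 4.32. Wnt7b likewise fell to 6.71 and 6.85 in 1 MAP3K7 pair and to 6.92 and 7.12 in 1 RON+MSP pair. The labels do not say what the pairs are.

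**Figure D5:**
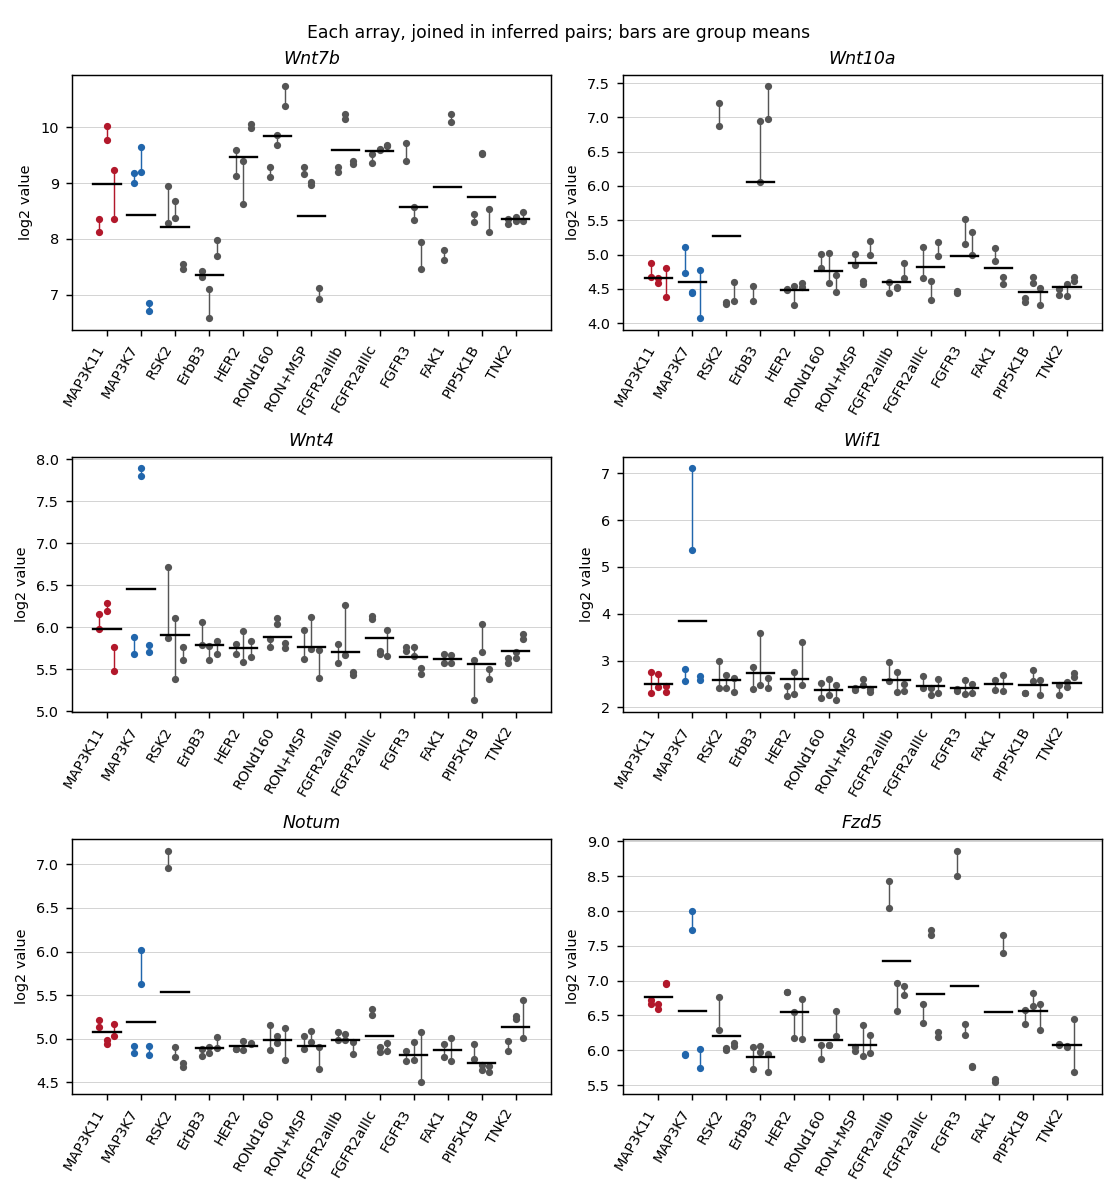
Log2 values of Wnt7b, Wnt10a, Wnt4, Wif1, Notum and Fzd5 in every array by introduced gene; lines join inferred pairs and black bars are group means (MAP3K11 in red, MAP3K7 in blue). In these genes, picked after their values were seen, a pair can lie far from the other pairs of its group. Wif1 is at 7.11 and 5.37 in 1 MAP3K7 pair, themselves apart, against at most 3.58 in all other arrays.

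Because pairs were matched on likeness, less spread within than between them is partly built in. For the 35 Wnt genes the median standard deviation was 0.17 within pairs and 0.32 between pair means of a group, and for all genes tested it was 0.13 and 0.17. The median ratio of the 2 was 1.47 for both sets. Wnt7b (3.72), Fzd5 (3.61), Dkk2 (3.34), Axin2 (3.16), Notum (3.11), Wnt10a (3.04) and Sfrp4 (3.02) had the highest ratios, and Fzd10, Wnt3a and Wnt6 had the lowest, 0.66 to 0.67.

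The T label gave no called Wnt gene and no called gene at all by limma's F test over T1, T2 and T3 (0 of 13868 genes, 0%). At an unadjusted p under 0.05 there were 3 of the 35 Wnt genes and 1130 of all genes.

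The 10 genes that did not pass the filter were Wnt1, Wnt2b, Wnt3, Wnt8a, Wnt8b, Wnt16, Dkk1, Dkk4, Rnf43 and Wif1. Wnt16 and Wif1 rose above the 40th percentile of the array, which was 4.68 to 4.86, in 2 arrays each and the others in none. Dkk1, a target and antagonist, stayed between 2.95 and 3.74, and Rnf43, the ligase partner of Znrf3, between 2.64 and 3.69. Such values say that these probe sets gave a signal near background, not that the genes are silent. Of the tested genes, Fzd9 (12 arrays), Wnt10a (24), Wnt9b (30) and Lef1 (42) passed the percentile in at most 42 of the 76 arrays, so a difference in them is limited by background.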

How the data were processed

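Total RNA from tumour material was extracted with a Qiagen kit and biotinylated as cRNA for 76 Affymetrix arrays, per the labels. The authors deposited log2 values for 45101 probe sets per array. Of tools, affy is named in the submitters' processing notes; the background correction and normalization method are, in the sources used here, not stated. Deposited log2 values were used unchanged.

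Of the probe sets, 34958 name 1 gene. Testing needed 4 or more arrays in which the gene's probe set exceeded that array's 40th percentile. All arrays were fitted together in limma 3.58.1 (R 4.3.3, statmod 1.5.0), with introduced gene and T label as terms, the inferred pairs (the matching of arrays within a group with the highest summed correlation of their medians over each of 19 autosomes) as a random block and moderated two-sided statistics. Full values are given for the 4 genes of each role class with the widest range of group means and for any called in MAP3K11 against the others. Of other pathway genes, up to 4 were to be named. Porcn, Wls and Frzb were added to those after their values were seen. Raw differences of probe sets are differences of group means. The members, pathway and marker lists, tests and alternatives were chosen with earlier results of these data known. The slopes on the marker lists and the leave-out repeats for arrays and pairs of groups other than MAP3K11 were chosen after seeing the data. The procedure was tested on simulated data with correlated pairs.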

Additional observations from a re-analysis of the deposited data

Results flagged for a closer look

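A single array lay far from its group, by Dixon's criterion, in 4 of 221 combinations of a fully described gene and a group. The criterion expects about 1 in 20 by chance for independent arrays. The arrays here come in correlated pairs, so the count cannot be judged against that rate. The T1 replicate 1 array of RONd160 was high in Wnt2, at 6.31, with the next array at 5.65. The T1 replicate 3 array of TNK2 was high in Wnt2, at 5.88, with the next at 5.18. The T1 replicate 3 array of RONd160 was low in Fzd1, at 7.53, with the next at 8.11. The T2 replicate 2 array of RSK2 was high in Fzd6, at 7.83, with the next at 7.12.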

How the results depend on the processing

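With each pair averaged, 13 Wnt genes differed among the 13 groups in place of 20, at an adjusted p under 0.01 12 did, and without the MAP3K11 arrays 10 did. Counting arrays as independent, with no pair block, raised the calls in the 13 contrasts from 25 to 69 and those between MAP3K11 and MAP3K7 from 5 to 8; at an adjusted p under 0.01 there were 14 in place of 25. Leaving out 1 array or 1 pair gave 3 to 8 calls between MAP3K11 and MAP3K7, 9 to 13 between MAP3K11 and the other groups, 17 to 21 among the groups, 21 to 33 in the 13 contrasts and 0 for the T label. The cause was not tested. With the T label and replicate number as a replicate block there were 20 calls among the groups, 12 between MAP3K11 and the other groups, 22 in the 13 contrasts and 5 between MAP3K11 and MAP3K7; these numbers pair no samples, since arrays of different groups with the same number had a median correlation of -0.01 in their deviations from group means. Of the other alternatives (filters, quantile normalization, median centring, other probe sets, covariates and variance priors), none moved these counts by over 1.5 times. Among the fully described genes none reversed the sign of a called difference between MAP3K11 and the other groups. The signs in the other comparisons were not checked. Pair means could not be run for the T label. The low signal of Lef1, Fzd9 and Wnt9b limits what could be seen in them.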
